A study of Rattus norvegicus with 2 samples.

Results

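The DNA replication and S-phase genes described here are 42 of the 32623 genes in the deposited feature tables. They were chosen by symbol as genes that license, unwind, copy and repackage DNA, and 41 of them had at least 20 unique molecular identifiers (UMIs, each standing for 1 captured RNA molecule) in microglia-like cells. Hells, a chromatin remodeller, had only 5 UMIs among dexamethasone and 1 among control cells and is not described further. The cells came from rat hippocampus at gestational day 20 and had been sorted as microglia by flow cytometry, with 7 male embryos pooled in each of 2 single-cell libraries. The embryos of one pool had received dexamethasone prenatally, a synthetic agonist of the glucocorticoid receptor, and those of the other were controls. With 1 library per group no test was possible, so each difference is between these 2 libraries, and batch and exposure cannot be told apart. Intervals are at the 95% level and cover counting error only.

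Before a cell copies its genome, Cdc6 and Cdt1 load the Mcm2 to Mcm7 ring onto origins, and geminin (Gmnn) later blocks Cdt1 so that no origin is loaded again in the same cycle. Cdc45 and the GINS complex turn the ring into a moving helicase, and polymerases held by the sliding clamp Pcna copy both strands from nucleotides that ribonucleotide reductase and thymidylate synthase supply. Many of these genes are switched on together at the start of S phase by E2F transcription factors. Microglia enter the brain as yolk-sac-derived cells and multiply there before birth, so cells in S phase belong to the normal picture of this tissue.

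The promoters are shown first because letters of the E2F recognition sequence were more frequent in those of the members than over all genes, although a minority of members held them. RefSeq promoter sequences (GRCr8 assembly) matched 37 of the 42 members by symbol, and Mcm4, Rrm2, Cdc6, Dscc1 and Blm had no entry. In the 250 bases before the start, TTTGGCGC or TTTCGCGC, forms of that sequence, stood on either strand in 10 of the 37 members, against 0.717% of the 27457 genes in the table. With TTTCCCGC and TTTGCCGC also allowed, 14 of the 37 members and 1.91% of all genes held a match. Of 39 other replication genes 1 held the stricter pair and 6 any of the 4 words (15.4%). Of 27 mitosis genes 1 held any of these 4 words, and of 9 microglia markers 0 did. TTTGAA or TTTAAA, the core of the CHR element known from genes of mitosis, stood in 22 of the 27 mitosis genes, in 8 of the 37 members and in 26.9% of all genes. The 8 members with the stricter words and a single listed start are printed below as 60-base windows read 5′ to 3′ along the gene, with the matched letters of either strand in capitals, which can run together where matches overlap. A match is a description of letters and not of a bound site.
Mcm2: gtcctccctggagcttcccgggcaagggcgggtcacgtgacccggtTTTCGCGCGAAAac
Mcm5: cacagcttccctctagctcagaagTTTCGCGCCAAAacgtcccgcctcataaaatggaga
Mcm6: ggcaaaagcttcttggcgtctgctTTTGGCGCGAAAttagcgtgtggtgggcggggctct
Mcm7: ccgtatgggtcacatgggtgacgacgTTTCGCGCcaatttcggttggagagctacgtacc
Gins1: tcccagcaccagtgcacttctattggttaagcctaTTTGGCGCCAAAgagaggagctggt
Pola1: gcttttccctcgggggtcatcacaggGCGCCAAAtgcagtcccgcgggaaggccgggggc
Tyms: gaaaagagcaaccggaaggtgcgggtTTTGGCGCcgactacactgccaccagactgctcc
Tipin: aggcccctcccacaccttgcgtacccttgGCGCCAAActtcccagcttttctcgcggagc

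On GRCr8 these windows lie at chr4:122918095-122918154 on the minus strand for Mcm2, chr19:13488576-13488635 on the plus strand for Mcm5, chr13:42404456-42404515 on the minus strand for Mcm6 and chr12:22163197-22163256 on the minus strand for Mcm7. Those of Gins1 and Tipin lie on the plus strand at chr3:160184860-160184919 and chr8:73676031-73676090, and those of Pola1 and Tyms on the minus strand at chrX:62342494-62342553 and chr9:120776087-120776146. In Mcm2, Mcm5, Mcm6 and Gins1 the match of 1 strand overlaps a match of the other, so that 12 bases stand in capitals. The first matched base lay 14 bases before the start in Mcm2, 25 in Gins1, 31 in Tipin, 37 in Tyms, 52 in Mcm7, 139 in Mcm6, 172 in Pola1 and 213 in Mcm5. Uhrf1 and Topbp1, with 3 listed starts each, make up the 10.

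After filtering, 4198 dexamethasone and 8044 control cells remained, and 5 cell barcodes occurred in both libraries. Microglia-like cells numbered 2925 and 6272, with median depths of 9208 and 7952 UMIs, and carried Csf1r at 1743 and 1613 and P2ry12 at 176 and 217 CPM (UMIs scaled to one common total in each class and library). Of the 15 microglia markers Siglech stood at 0 in both libraries. Border-macrophage-like cells, named for macrophages of the meninges and vessels, numbered 608 and 757 and carried Mrc1 at 1127 and 2119 CPM, against 221 and 203 in microglia-like cells. P2ry12 was lower in the border class, at 124 and 111 CPM, but Csf1r was higher, at 1989 and 2254 CPM. The microglia markers together did not set the classes apart, with sums of 13609 and 12411.5 CPM in border-macrophage-like and 13277 and 11753 in microglia-like cells. Cycling genes led clusters 5, 6 and 7 of the microglia-like class, although cell-cycle and histone genes had been kept out of the clustering. The class was not filled alike, since cluster 2 held 2963 of the control cells and 729 of the dexamethasone cells, while cluster 0 held 739 and 826. Mitochondrial genes took 3.17% of UMIs in dexamethasone and 6.01% in control microglia-like cells, and ribosomal protein genes 16.1% and 14.4%. The part of these differences in the library ratios below was not tested.

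Summed over all members, microglia-like cells held 1834 CPM of the dexamethasone library and 1690 CPM of the control, a log2 ratio of 0.12 (0.10 to 0.13). The members did not move as a block, for licensing and helicase genes were higher in the dexamethasone library while polymerase and fork genes were at almost the same level. The log2 ratio of the summed level was 0.36 for the 3 licensing genes, 0.24 for the 9 helicase genes, 0.13 for the 5 nucleotide genes, 0.10 for the 7 measured chromatin genes, 0.03 for the 8 fork genes and 0.01 for the 9 polymerase, clamp and lagging-strand genes. Over the 8 other ways tried of choosing or scaling the microglia-like cells, the licensing sum stayed between 0.26 and 0.41 and the helicase sum between 0.19 and 0.27, while the fork and polymerase sums changed sign. The median member stood at 0.09, beside 0.01 over the 12441 genes with as many UMIs. A gene is counted here as past the fold when the libraries differ by at least 1.2-fold. That held for 7 of the 41 members in the higher direction, where 13.2% of all genes with at least 100 UMIs were past it, and for 1 member in the lower direction, where 10.8% of all genes were. These counts are near the background, and the shift of the whole list was small. It was 0.06 with a stricter cell filter and 0.05 when cell-cycle genes took part in the clustering.

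**Figure D1:**
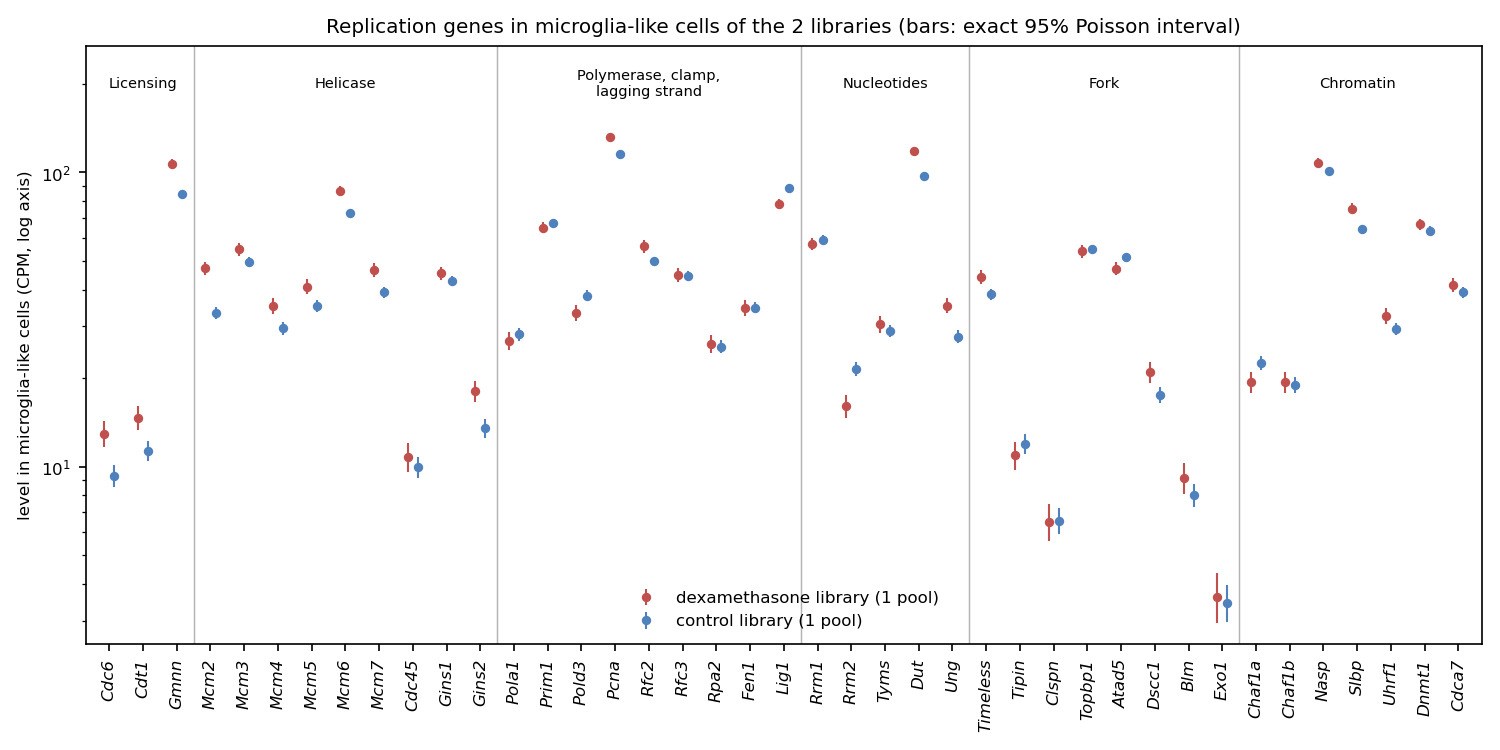
Level of each measured member in microglia-like cells (CPM, log axis) in the dexamethasone and control libraries, grouped by role, with exact Poisson intervals. Levels run from 3.44 CPM for Exo1 in the control library to 132 for Pcna in the dexamethasone library, and the 3 licensing and 9 helicase genes all stand higher in the dexamethasone library.

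Each licensing gene was past the fold. Cdc6, which loads the helicase ring, had 12.9 CPM in the dexamethasone and 9.29 in the control library, a log2 ratio of 0.48 (0.28 to 0.67). Its partner Cdt1 had 14.7 and 11.3 CPM, a log2 ratio of 0.37 (0.19 to 0.55). Geminin, the inhibitor of Cdt1, was the most abundant of these RNAs at 107 and 84.7 CPM, a log2 ratio of 0.34 (0.27 to 0.40). The loaders and their inhibitor thus lay on the same side. Geminin came down to 0.25, just under the fold, when cell-cycle genes took part in the clustering, and to 0.26 with the stricter filter.

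All 9 helicase genes were higher in the dexamethasone library, and 2 of them passed the fold; Gins1 came to -0.0045 with the stricter filter and Cdc45 to -0.0122 with cell-cycle genes in the clustering. Mcm2 had 47.2 CPM in the dexamethasone and 33.3 in the control library, a log2 ratio of 0.51 (0.41 to 0.61). It was found in 28.1% and 20.0% of cells, shares not matched for depth, which was greater in the dexamethasone library. Gins2, a subunit of GINS, had 18.03 and 13.5 CPM, a log2 ratio of 0.42 (0.25 to 0.58). The subunits of the ring did not differ by the same amount, since Mcm3, at 54.8 and 49.7 CPM, gave 0.14 (0.05 to 0.23) and its interval does not meet that of Mcm2. Mcm6, the most abundant subunit by UMIs, had 86.8 and 72.7 CPM, a log2 ratio of 0.26 (0.19 to 0.33), just short of the fold. Over the settings tried, Mcm2 stayed between 0.45 and 0.59 and Mcm6 between 0.23 and 0.29. Mcm4, Mcm5 and Mcm7 lay between 0.22 and 0.25, and Gins1 and Cdc45 at 0.08 and 0.11 with intervals that include 0.

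The genes that copy DNA were split, 4 higher and 5 lower, and none passed the fold in the main setting. Over the settings tried, Rfc2 reached 0.31 and Lig1 -0.29, both past it. Pcna, the sliding clamp and the most abundant member, had 132 CPM in the dexamethasone and 116 in the control library, a log2 ratio of 0.19 (0.13 to 0.24). Lig1, which seals the fragments of the lagging strand, lay the other way at 78.1 and 88.8 CPM, a log2 ratio of -0.18 (-0.26 to -0.11). Pold3, a subunit of polymerase delta, had 33.4 and 38.1 CPM and a log2 ratio of -0.19 (-0.30 to -0.08). Rfc2, a subunit of the clamp loader named after its value was seen, had 56.1 and 49.9 CPM and a log2 ratio of 0.17 (0.08 to 0.26). Prim1 and Pola1, which start each fragment, lay at -0.06 and -0.07 with intervals that include 0, as did Fen1, Rfc3 and Rpa2.

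Among the nucleotide genes the 2 subunits of ribonucleotide reductase differed from each other. Rrm2, the subunit made in S phase, had 16.1 CPM in the dexamethasone and 21.5 in the control library, a log2 ratio of -0.42 (-0.57 to -0.27), and was the only member past the fold in the lower direction. Rrm1, its larger partner, had 57.1 and 59.2 CPM, a log2 ratio of -0.05 (-0.14 to 0.03). Dut and Ung, which keep uracil out of DNA by clearing dUTP and by cutting out the base, were both past the fold in the higher direction. Dut had 118 and 97.4 CPM, a log2 ratio of 0.28 (0.22 to 0.34), and Ung had 35.3 and 27.7 CPM, a log2 ratio of 0.35 (0.24 to 0.47). Dut came down to 0.21, under the fold, with the stricter filter and with cell-cycle genes in the clustering, and Rrm2 came to -0.26, also under it, on thinned counts. Tyms, which makes thymidylate, had 30.5 and 28.9 CPM.

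No fork or chromatin gene passed the fold in the main setting. Over the settings tried, Blm reached 0.40, Dscc1 0.30, Timeless 0.28 and Chaf1a -0.32, each past it. Of the fork genes, Topbp1, which activates the checkpoint kinase ATR, had 54.0 CPM in the dexamethasone and 54.8 in the control library. Atad5, which takes the clamp off DNA, had 47.1 and 51.5 CPM, a log2 ratio of -0.13 (-0.22 to -0.04). Dscc1, part of a clamp loader for cohesion, had 20.9 and 17.5 CPM, a log2 ratio of 0.25 (0.11 to 0.40), and Timeless, which steadies the fork, had 44.2 and 38.6 CPM, a log2 ratio of 0.20 (0.10 to 0.30). Of the chromatin genes, the histone chaperone Nasp had 108 and 101 CPM, a log2 ratio of 0.09 (0.03 to 0.16). Slbp, which binds the stem-loop of histone mRNA, had 75.3 and 64.4 CPM, a log2 ratio of 0.23 (0.15 to 0.30). Chaf1a, the large subunit of the chromatin assembly factor, had 19.4 and 22.6 CPM and so lay lower, with a log2 ratio of -0.22 (-0.36 to -0.08), while its partner Chaf1b had 19.4 and 18.95 CPM. Dnmt1 and Uhrf1, which copy DNA methylation onto new strands, gave 0.07 and 0.15. Promoter letters did not separate the members by ratio, with a median of 0.12 over the 10 that held the stricter words and 0.08 over the 26 other measured members in the table.

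**Figure D2:**
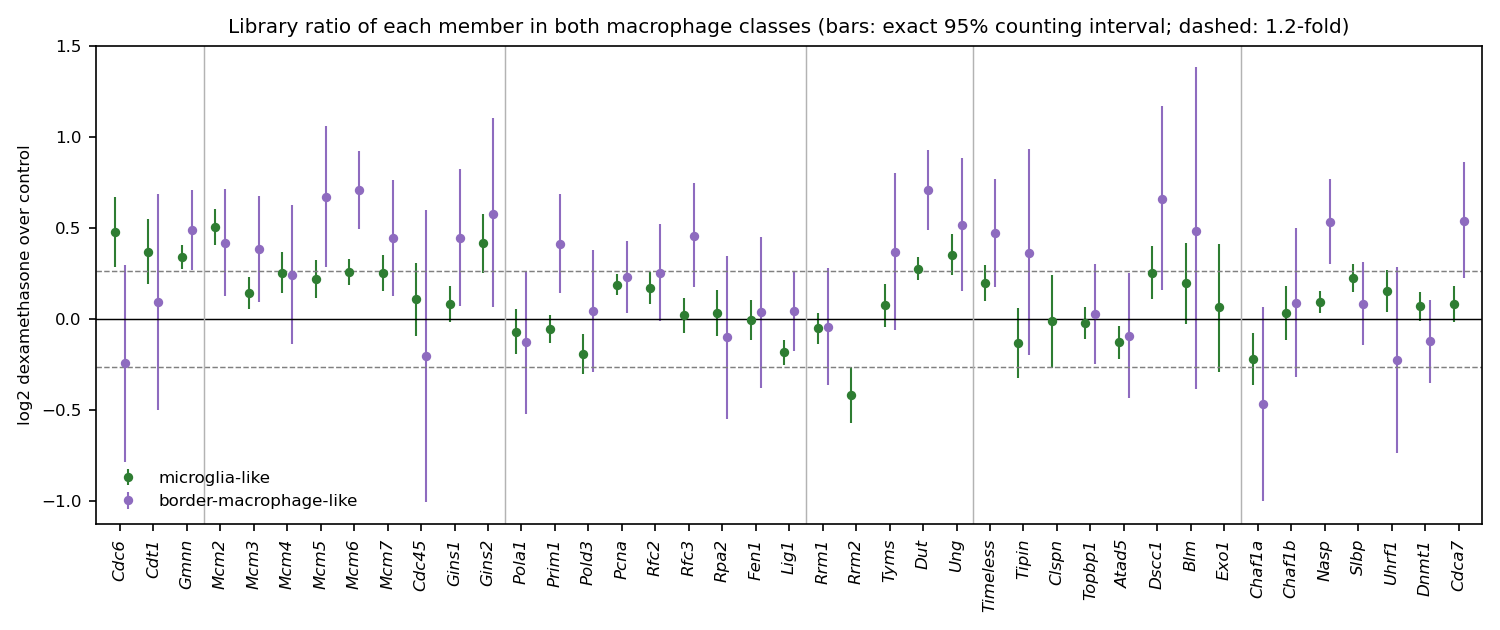
Log2 ratio of dexamethasone over control for each member in microglia-like and in border-macrophage-like cells, grouped by role, with exact counting intervals and dashed lines at 1.2-fold. In microglia-like cells Mcm2 is the highest at 0.51 and Rrm2 the lowest at -0.42, and the intervals in border-macrophage-like cells are wide.

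Other genes of the pathway gave the same picture of a small and uneven difference. Of 47 further replication genes, 31 were higher and 16 lower in the dexamethasone library, with 8 and 3 past the fold and a summed log2 ratio of 0.03. For this and the next 2 lists, the share of all genes past the fold was 13.2% higher and 10.8% lower. The most abundant were Top1, Dtymk and Rfc1, and the last 2 had log2 ratios of -0.08 and -0.09. Top1, the topoisomerase that relieves twist ahead of the fork, had 89.6 CPM in the dexamethasone and 107 in the control library, a log2 ratio of -0.25 (-0.32 to -0.19). Rpa3, the small subunit of the single-strand binding protein, lay on the other side at 76.7 and 55.0 CPM, a log2 ratio of 0.48 (0.40 to 0.56), while Rpa2 gave 0.03. Chtf18, a clamp loader subunit, gave 0.52 (0.20 to 0.83), and Pole3, with only 58 UMIs, gave 0.72 (-0.08 to 1.51). Of 13 regulators of the step from G1 to S, 8 were higher and 5 lower, with 2 past the fold, both higher. Cyclin E2 (Ccne2) had 14.1 and 9.94 CPM, a log2 ratio of 0.51 (0.32 to 0.69), and its kinase Cdk2 gave 0.32 (0.11 to 0.53). The phosphatase Cdc25a, which frees that kinase, gave 0.22 (0.11 to 0.32), and the abundant regulators Rbl1 and E2f3 gave -0.10 and 0.01 with intervals that include 0. The 29 mitosis genes lay the other way, 7 higher and 22 lower, with 1 and 7 past the fold and a summed log2 ratio of -0.18 (-0.20 to -0.17), which stayed between -0.40 and -0.09 over the same 8 settings. The sum of the further replication genes and that of the regulators came to -0.0120 and -0.0471 with cell-cycle genes in the clustering.

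Cells in S phase were counted after each cell was thinned at random to 4300 UMIs, so that depth was equal. A cell was called S-phase-like when it held a UMI of at least 5 of 25 members used for the call, and mitosis-like when it held a UMI of at least 5 of the 29 mitosis genes. Of 2771 thinned microglia-like dexamethasone cells 23.2% (21.6 to 24.8%) were S-phase-like, and of 5649 control cells 21.1% (20.1 to 22.2%). The difference of 2.03 percentage points had a counting interval of 0.13 to 3.96. About 1 microglia-like cell in 5 of both pools was thus in this range, and the excess in the dexamethasone library was close to counting error. It came to 0.69 points (-1.01 to 2.42) when cell-cycle genes took part in the clustering and to 0.87 (-0.87 to 2.65) when Mcm2 to Mcm7 were left out of the call. Without thinning the shares were 39.6% and 33.7%, a gap of 5.85 points between libraries whose median depths differed. Thinning left out 154 and 623 shallower cells.

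The call cuts a continuous range. Cells with exactly 4 or 5 call genes made up 11.8% of dexamethasone and 10.7% of control microglia-like cells, and those with at least 8 made up 10.03% and 9.03%. Mitosis-like shares were 19.7% (18.2 to 21.2%) in the dexamethasone and 19.4% (18.4 to 20.5%) in the control library. Their order turned, with wider gaps, to 17.4% and 20.0% with cell-cycle genes in the clustering, 17.7% and 20.6% with the stricter filter and 19.5% and 21.2% at Leiden resolution 1. Cells that met both calls made up 8.44% and 8.39%. Doublets were not removed and may be among them, and their part was not tested. Erythroid-like cells were S-phase-like in 0 of 101 dexamethasone cells, where 3 counts of that total give an upper limit of 2.97%, and in 1 of 130 control cells (0.77%). Without thinning, at median depths of 18248 and 21479 UMIs, their shares were 3.92% and 3.82%. Globin genes led this cluster and counted toward the thinned total, so depth was not matched for the other genes. A phase call by scanpy put 41.9% and 39.0% of microglia-like cells in S, but also 22.8% and 19.2% of erythroid-like cells. Its S share was 44.2% of dexamethasone and 35.4% of control border-macrophage-like cells. The neuron-like class reached 40.9% (dexamethasone) and 52.1% (control). Border-macrophage-like cells thus stood above microglia-like cells in the dexamethasone library, and neuron-like cells did so in the control library. The phase call is used below only as another setting for the border class.

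**Figure D3:**
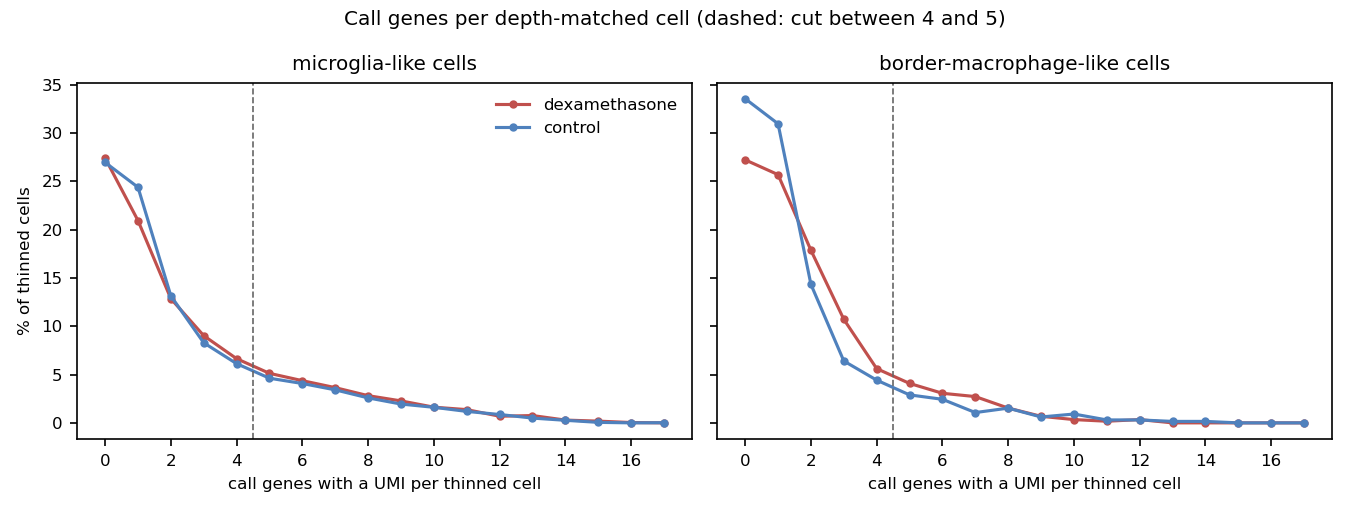
Share of thinned cells (%) by the number of call genes with a UMI, for microglia-like and border-macrophage-like cells of each library, with the cut between 4 and 5 dashed. Shares decline without a second peak, and 27.4% and 26.9% of microglia-like cells in the dexamethasone and control libraries held none of the call genes.

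**Figure D4:**
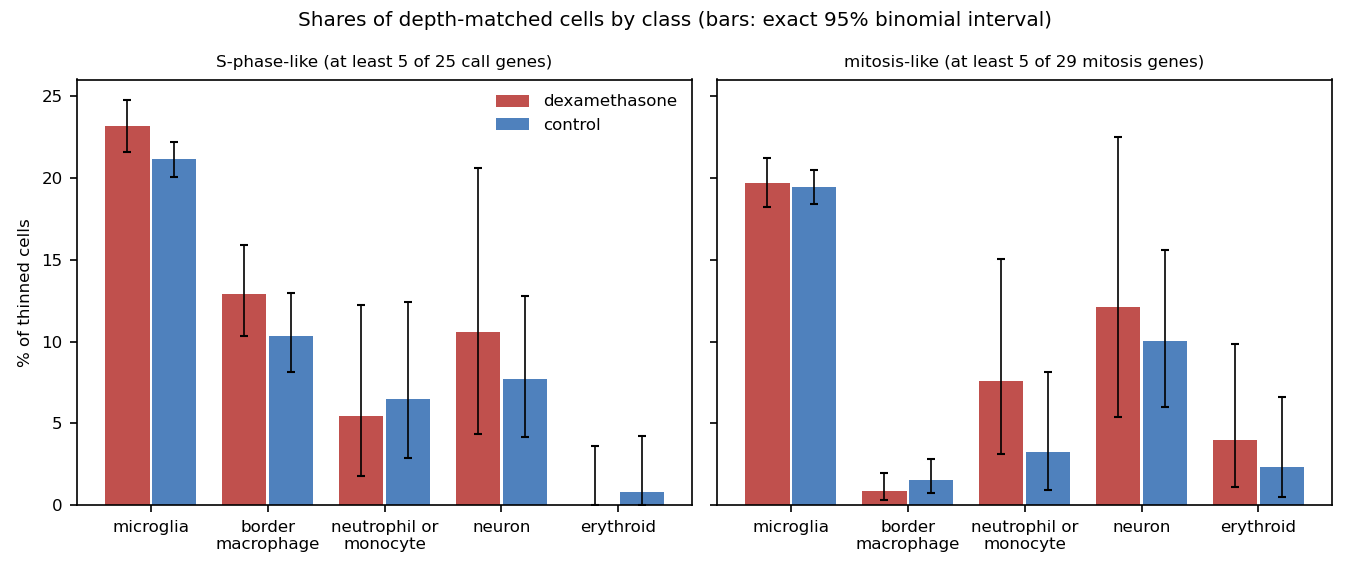
Share of thinned cells (%) called S-phase-like and mitosis-like in 5 classes of each library, with exact binomial intervals and axes from 0. Microglia-like cells are highest in both panels, at 23.2% and 21.1% S-phase-like, while border-macrophage-like cells have an S-phase-like share of 12.9% and 10.4% beside a mitosis-like share of 0.85% and 1.52%.

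The 17 members that took no part in the call belong to the same list of S-phase genes. A higher level of these members in S-phase-like cells was thus likely in advance and is no independent check of the call. Their summed level was 2229 CPM in S-phase-like and 583 CPM in the other dexamethasone microglia-like cells, a 3.82-fold difference, and 2164 and 525 CPM in the control library, 4.12-fold. All 17 were past 1.2-fold higher in S-phase-like cells of each library, where 23.8% of all genes in the dexamethasone and 23.4% in the control library were past it. Rrm2 differed most, 8.54-fold and 8.96-fold, and Tipin, a partner of Timeless, least, 1.92-fold and 2.43-fold. Pcna was 3.96-fold and 4.26-fold higher, and geminin 5.06-fold and 5.61-fold. In both pools, replication genes outside the call were thus higher in the cells it picked. Microglia markers did not separate the cells in this way, with a median log2 difference of -0.17 in the dexamethasone and -0.21 in the control library. Border markers were uneven, with a median of 0.25 over 8 in the dexamethasone and -0.53 over 10 in the control library. Mrc1 (0.36 and 0.44) and Folr2 (0.28 and 0.46) were higher in S-phase-like cells of both. Pf4 was lower in both (-0.19 and -0.42), and F13a1 gave 0.77 and -0.69.

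The members did not all have their highest level in the same state, where states were set by RNA and not by DNA content. With cells split by both calls, the uracil glycosylase Ung in control cells had 19.2 CPM in cells that met neither, 79.3 in cells that were S-phase-like only, 47.8 in cells that met both and 4.60 in cells that were mitosis-like only. Pcna had 65.7, 224, 367 and 73.5 CPM, so its highest level lay in cells that met both calls. Rrm2 had 0.89, 14.9, 141 and 41.3 CPM, so it was highest where mitosis genes were present as well. The dexamethasone library had the same order, with 23.5, 86.7, 74.3 and 6.07 CPM for Ung and 0.22, 14.6, 105 and 32.7 CPM for Rrm2.

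The log2 ratio of mitosis-only over S-only cells puts these genes on a scale. Among members outside the call it was -4.11 for Ung, -1.91 for Timeless, -1.70 for Dnmt1, -1.61 for Pcna, -0.80 for geminin, 0.04 for Nasp, 0.18 for Rrm1, 0.42 for Blm and 1.47 for Rrm2 in control cells. In dexamethasone cells the corresponding ratios were -3.83, -1.81, -1.86, -1.70, -0.93, -0.14, 0.10, 0.24 and 1.17. The neighbours Timeless, Dnmt1 and Pcna, and likewise Nasp, Rrm1 and Blm, have intervals that overlap. For each member used for the call the states were drawn without that gene, while the other call genes still took part. Among these members Cdt1 (-4.78), Cdc6 (-3.85) and Mcm6 (-3.13) stood lowest and Clspn (-0.23) highest in control cells. In dexamethasone cells the same genes gave -2.99, -2.93, -2.97 and -0.42. The order differed there, with Dscc1 at -3.37, below Cdt1, and Exo1 at 0.10 (-0.71 to 0.91), above Clspn. Geminin, which acts after origins have fired, kept 105 CPM in mitosis-only control cells, where Cdt1 had 1.53. In mitosis-only dexamethasone cells geminin had 119 CPM and Cdt1 5.54.

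**Figure D5:**
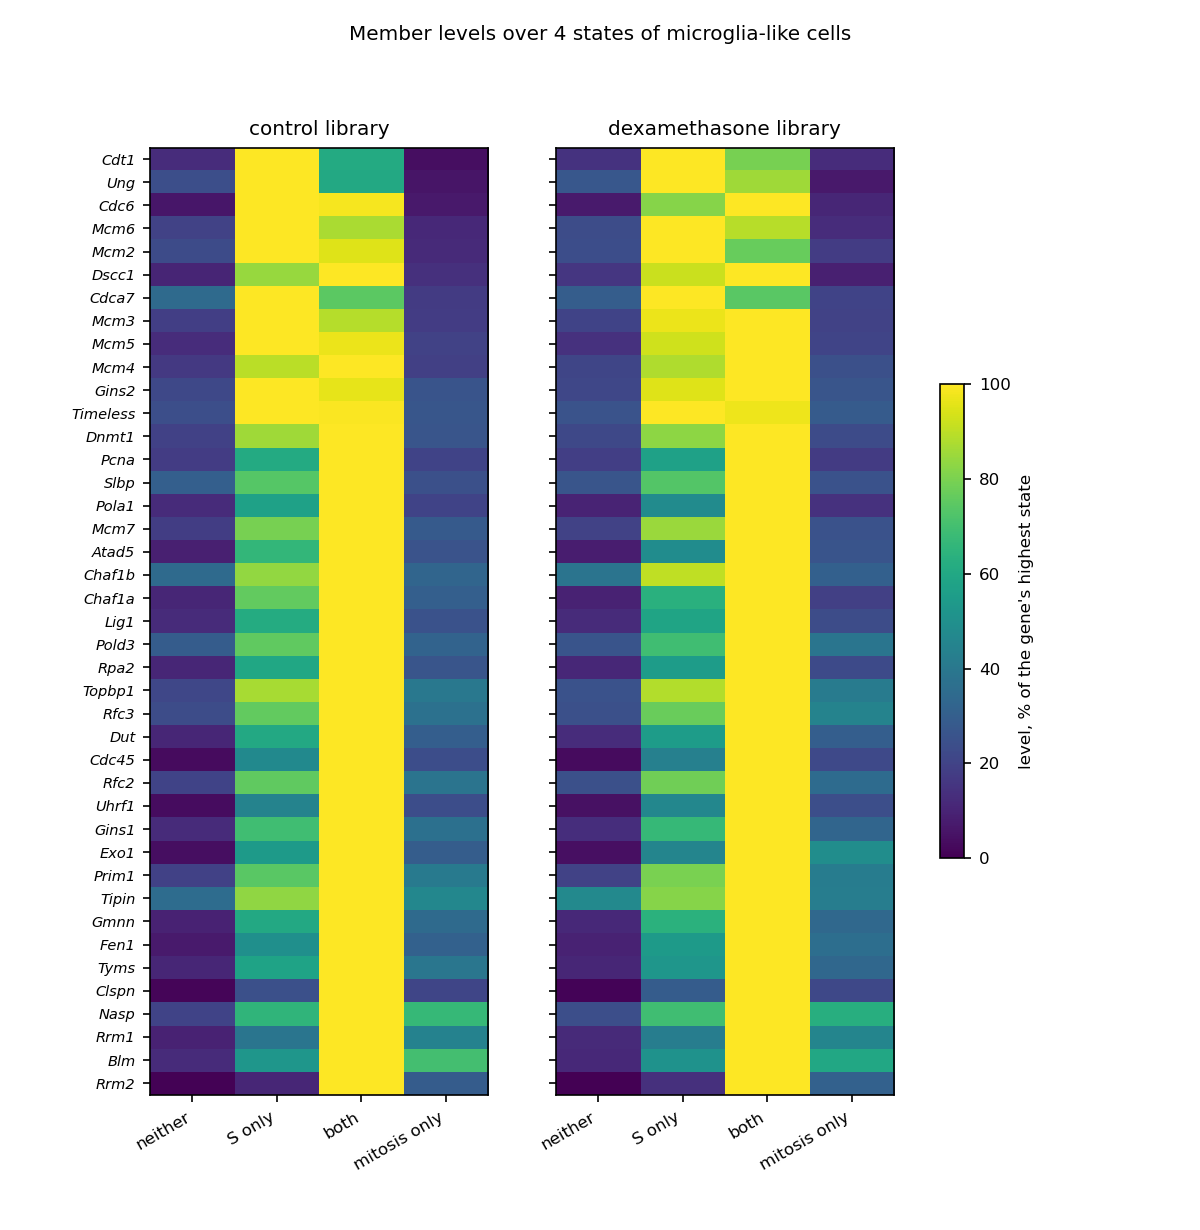
Level of each measured member in 4 states of microglia-like cells, as a percentage of the gene's highest state, with genes in the order of the control ratio of mitosis-only over S-only cells; each call gene was left out of the call that set its own states. Cdt1 and Ung are highest in cells that are S-phase-like only, and Rrm2 in cells that meet both calls, in each library.

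Split by state, the library difference of the summed level was largest in cells that met neither call. There the 17 members outside the call summed to 512 CPM in the dexamethasone and 441 in the control library, a log2 ratio of 0.22 (0.18 to 0.25). The ratio over all genes was not measured within a state, so these differences have no background beside them. In S-phase-like-only cells the sums were 1843 and 1752 CPM (0.07, 0.03 to 0.11), in cells that met both 2858 and 2704 CPM (0.08, 0.04 to 0.12), and in mitosis-only cells 930.4 and 932 CPM (-0.00285, -0.06 to 0.06). Geminin was higher in the dexamethasone library in all 4 states, from 0.51 (0.38 to 0.65) in cells that met neither to 0.18 (0.01 to 0.35) in mitosis-only cells. Rrm2 was lower where it is most abundant, at 105 and 141 CPM in cells that met both, a log2 ratio of -0.43 (-0.63 to -0.23). Slbp gave 0.28, 0.29 and 0.35 in the 3 cycling states and 0.10 in cells that met neither.

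Border-macrophage-like cells, as named here, carried less of the replication genes than microglia-like cells of the same library. Any border macrophages in the clusters led by cycling genes, all named microglia-like, would count on the other side of this comparison. The members summed to 1228 CPM against 1834 in the dexamethasone library, a log2 ratio of -0.58 (-0.61 to -0.54), and to 1002 against 1690 in the control library, -0.75 (-0.79 to -0.72). Of 41 members 36 and 37 were past 1.2-fold lower, where 26.9% of all genes in the dexamethasone and 33.5% in the control library were past it in that direction. The largest gap was that of Rrm2, at 0.83 against 16.1 CPM and 1.54 against 21.5 CPM, although it rests on 5 and 9 UMIs in border-macrophage-like cells. Clspn, an adaptor of the replication checkpoint, was 6.54-fold and 4.24-fold lower. Mcm2 differed least among the helicase genes in the control library, at 28.6 against 33.3 CPM, and Cdc6 had 10.98 against 9.29 CPM there.

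The border class, as named here, had S-phase-like cells and almost no mitosis-like ones. The clusters led by cycling genes had all been named microglia-like. Any border macrophages within them would be missing from the shares and levels of the border class, and whether they held any was not tested. The S-phase-like share was 12.9% (10.3 to 15.9%) of 588 dexamethasone and 10.4% (8.14 to 12.96%) of 656 control cells, and the mitosis-like share was 0.85% (0.28 to 1.97%) and 1.52% (0.73 to 2.79%). Of S-phase-like border cells 3.95% (0.82 to 11.1%) and 8.82% (3.31 to 18.2%) were also mitosis-like, against 36.4% (32.7 to 40.3%) and 39.7% (36.9 to 42.5%) of those in the microglia-like class. S-phase-like border cells also had lower levels of the 17 members outside the call than S-phase-like microglia-like cells, at 1509 against 2229 CPM in the dexamethasone and 1610 against 2164 CPM in the control library. They also held fewer call genes, on average 6.62 against 7.64 and 7.19 against 7.59, and lower levels of the call genes, with log2 ratios of -0.45 and -0.18. The part of this in the lower levels was not tested. Topoisomerase Top2a, a mitosis gene, had 5.67 against 286 CPM and 47.2 against 376 CPM in these cells, and in control cells whose class 3 clusterings agreed on 15.03 against 400.2 CPM. Mki67, another mitosis gene, was present at 59.0 against 525 CPM and 268 against 661 CPM. Cyclin E1 (Ccne1) had 12.5 against 64.5 CPM and 9.44 against 71.5 CPM. Dnmt1, at 129 against 156 CPM and 153 against 160 CPM, had counting intervals that include no difference in both libraries. So did Ung, Tipin, Timeless, Blm and Topbp1 among the members outside the call. Top2a, Mki67 and cyclin E1 were picked after their values were seen.

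Between the libraries, the border class gave no stable answer. The summed log2 ratio was 0.29 (0.24 to 0.34), with 19 of 38 measured members past the fold higher where 17.8% of all genes were, and 1 lower where 18.5% were. With the class cut down to cells that 3 clusterings agreed on, 381 and 734 cells, the sum gave 0.15 and 11 and 3 members passed the fold, where 12.5% and 18.3% of all genes did. With a stricter cell filter the sum turned to -0.05. The difference in the S-phase-like share, 2.56 points (-1.11 to 6.28), turned to -4.52 with the stricter filter and to -0.96 in the agreed cells. Border markers moved with the library too, since the 10 found summed to 4906 CPM in the dexamethasone and 8946 in the control border class, and their part in the difference was not tested.

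The other gated cells were few. Neuron-like cells, 120 and 493, carried the members at 1668 and 1722 CPM, a sum near that of microglia-like cells. Of those deep enough to thin, 10.6% (4.37 to 20.6%) and 7.69% (4.16 to 12.8%) were S-phase-like. Their median depths were 5516 and 1721 UMIs, and thinning left out 54 and 324 of them. Nasp alone had 324 and 290 CPM in neuron-like cells, against 108 and 101 in microglia-like cells. Without Pcna, Dut and Nasp the sums were 1075 and 1182 CPM, against 1476 and 1376 CPM in microglia-like cells. Neutrophil-or-monocyte-like cells, 99 and 130, carried 1004 and 810 CPM, with 5.43% (1.79 to 12.2%) and 6.50% (2.85 to 12.4%) S-phase-like. Erythroid-like cells stood lowest at 90.2 and 129 CPM, scaled to totals that include the UMIs of globin genes. In these red cell precursors the helicase genes summed to 10.6 and 24.0 CPM, against 386 and 326 CPM in microglia-like cells. Clusters left unnamed held 338 dexamethasone and 221 control cells, of which 15.3% and 18.6% of the thinned cells were S-phase-like.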

How the data were processed

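The deposited values were raw counts of UMIs per gene and barcode, made by the authors with Cell Ranger 7.0.0 against Rnor_6.0, per the submitters' processing notes, and every value column was used. The libraries held 42611920 UMIs in 4328 barcodes (dexamethasone) and 69940778 in 8342 (control). Members and gene lists were chosen with earlier results of these data known, as were the tests and settings. The cell filter required 200 genes and allowed up to 20% mitochondrial UMIs. Scrublet marked 1 of 4199 and 0 of 8044 cells, too few for a working call, so doublets remain. Clustering used scanpy 1.11.5 (2000 variable genes without cell-cycle and histone genes, 30 components, 15 neighbours, Leiden resolution 0.5). Classes came from listed markers. Clusters in which at least 2 markers of another class, and more than of microglia, were among the top 25 genes took that class, and others with at least 10 microglia markers at 0.6 of their median level were microglia-like. UMIs were summed per class and library and scaled to CPM of all UMIs, which for 3′ tags needs no length correction. Intervals were exact Poisson (CPM), conditional binomial (ratios) and Clopper-Pearson (shares). A difference of shares joined the bounds of both. Thinning depth was the 10th percentile of microglia-like UMIs in the shallower library, rounded down to 100. Members needed 20 UMIs to be measured. From each role, the 2 members of highest mean CPM, the 2 of largest absolute log2 ratio with at least 100 UMIs and every member past 1.2-fold were named, and from the other lists the 3 of each kind. E2f1, Ccnb2 and Dna2 had no match by symbol and were not used here. The calculations were tested on simulated data.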

Additional observations from a re-analysis of the deposited data

How the results depend on the processing

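No paired analysis was possible because each group had 1 library. With 1 library, a replicate cannot be left out. The 41 single ratios in microglia-like cells were recomputed in 8 other settings, and of the 328 values 30 moved by more than their counting interval and 0 turned past it. In microglia-like cells the summed log2 ratio ran from 0.0454 with cell-cycle genes in the clustering, over 0.0598 (stricter filter), 0.0762 (Leiden resolution 1), 0.10 (no mitochondrial or ribosomal genes), 0.10 (without Pcna, Dut and Nasp) and 0.13 (thinned counts), to 0.16 for the mean of per-cell CPM. The median member gave 0.0178, 0.0412, 0.0681 and 0.154 with cell-cycle genes, the stricter filter, resolution 1 and per-cell CPM. The 7 members past the fold higher became 11 with per-cell CPM and 0 at 1.5-fold. The 1 lower became 3 with the stricter filter and with cell-cycle genes, and 0 with thinned counts and at 1.5-fold. The S-phase-like difference was 5.85 points without thinning.

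In border-macrophage-like cells the summed log2 ratio was -0.0521 with the stricter filter, 0.12 without the cells of most UMIs, 0.15 at resolution 1, 0.35 with per-cell CPM and 0.15 in the agreed class. The difference in S-phase-like share was -4.52 points with the stricter filter, -0.0843 without the cells of most UMIs, -0.82 at resolution 1, -0.90 with at least 8 call genes, -0.96 in the agreed class, 8.85 by the phase call and 14.1 without thinning. The cause was not tested.

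Border over microglia-like cells, the sum kept its direction: -0.67, -0.68, -0.41, -0.76 and -0.86 (dexamethasone) and -0.56, -0.70, -0.67, -0.83 and -0.90 (control) with the stricter filter, without the cells of most UMIs, with cell-cycle genes, at resolution 1 and in the agreed class. In each of these settings the clusters led by cycling genes were named microglia-like, so the kept direction does not address border macrophages within them. The log2 excess of members outside the call in S-phase-like cells was 1.97 and 2.10 (dexamethasone and control) with the stricter filter, 2.01 and 2.08 without the cells of most UMIs, 1.84 and 1.93 with at least 8 call genes, and 1.90 and 2.004 in the agreed class. In the control library it was 2.01 with cell-cycle genes and 1.99998 at resolution 1. The agreed class, the call without Mcm2 to Mcm7 and a second thinning draw were chosen after seeing the data.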
